A study of Mus musculus with 9 samples.

Results

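The 10 transcription factor genes followed here are known for building or maintaining T cell identity and were read across the 3 groups of T15 libraries, and were chosen by name: Tcf7, Lef1, Bcl11b, Satb1, Runx1, Runx3, Ikzf1, Ikzf3, Id2 and Id3. They are 10 of the 35288 genes listed in the expression table. T15 is a cell line from a mouse model of Smarcb1-negative peripheral T cell lymphoma. All 9 RNA-seq libraries therefore came from a line that had lost Smarcb1, a core subunit of the SWI/SNF chromatin remodelling complex. The 3 control libraries were compared with 3 libraries of cells given SAHA, a histone deacetylase inhibitor, in 2 additions of 1 µM over 72 h, and with 3 libraries of Smarcb1-RE cells. In Smarcb1-RE cells Smarcb1 was put back by a lentiviral pInd20 vector, after G418 selection, and switched on with doxycycline (0.5 µg/µl) for 72 h. The labels name a vehicle for the drug arm and a control plasmid for the vector arm but do not say which of them the 3 control libraries had received. Transduction, selection and doxycycline therefore cannot be told apart from Smarcb1 itself. Neither can a control plasmid in the control libraries, if there was one, be told apart from SAHA. The labels also do not say whether the 3 Smarcb1-RE libraries came from 1 clone or from several, nor that libraries came from separate cultures, and the p-values measure the spread between these libraries only.

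Members of this group act in layers. The HMG-box factors TCF-1 (encoded by Tcf7) and LEF-1 open chromatin in early T cell precursors and can recruit β-catenin or corepressors of the Groucho/TLE family. Bcl11b commits precursors to the T lineage, and Satb1 organizes chromatin loops in thymocytes. RUNX proteins bind DNA with the partner CBFβ, and Runx3 is known for CD8 lineage genes. Ikaros (Ikzf1) and Aiolos (Ikzf3) are zinc-finger proteins that work with the NuRD complex, which contains histone deacetylases. Id2 and Id3 bind no DNA themselves and instead hold E proteins (Tcf3, Tcf4 and Tcf12) off the DNA.

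Library totals ran from 20900477 to 24941494 estimated counts, so 3 counts, taken as the floor, corresponded to 0.120 to 0.143 CPM (counts scaled to 1000000 per library). Smarcb1 itself had 2, 5 and 8 counts in the control libraries, 7, 13 and 3 with SAHA and 151, 147 and 142 in Smarcb1-RE, in the order of replicates 1 to 3. The Smarcb1-RE libraries therefore carried the transcript that their label names. Of 12 T cell marker genes, Cd2, Cd5 and Cd6 had at most 3 counts in every library and Thy1 at most 6. The summed level of the list, which came from its other genes, was 2594 to 2961 CPM across the 9 libraries. Control replicate 1 stood apart from the other control libraries, with a chi-square per gene of 12.55 and 14.07 against them, where the other replicate pairs gave 2.067 to 4.552. In bulk RNA a lower level can mean fewer cells with the transcript or less of it per cell, and these cannot be told apart.

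SAHA and Smarcb1 re-expression moved the members in partly different directions. With SAHA, Runx3, Ikzf3, Id2 and Runx1 were higher and Ikzf1, Bcl11b and Tcf7 lower than in control, all by less than 1 on the log2 scale. In Smarcb1-RE, Runx1, Lef1, Id3, Runx3 and Ikzf3 were higher and Tcf7, Id2 and Bcl11b lower, and Tcf7 and Runx1 moved most. By edgeR's quasi-likelihood test at a Benjamini-Hochberg adjusted p under 0.05, 7 of the 9 tested members were called with SAHA (4 higher, 3 lower), where 66.9% of all 13697 tested genes were called. Against the same control libraries, 8 of 9 were called in Smarcb1-RE (5 higher, 3 lower), where 77.8% of all genes were called, and 6 of 9 differed between Smarcb1-RE and SAHA (4 higher in Smarcb1-RE, 2 lower), where the share over all genes was 74.6%. The member counts lie near the shares of all genes. Without control replicate 1 the counts were 7 (4 higher, 3 lower), 8 (5 higher, 3 lower) and 7 (4 higher, 3 lower). By direction, 32.6% of all genes were higher and 34.3% lower with SAHA, 39.2% and 38.6% in Smarcb1-RE, and 37.7% and 36.8% in Smarcb1-RE against SAHA. The libraries of the groups did not overlap for 6 of the 9 members with SAHA (68.7% of all genes), 7 in Smarcb1-RE (79.5%) and 8 between Smarcb1-RE and SAHA (80.0%). Satb1 was too low to be tested, and Lef1 passed the filter on low counts only through its Smarcb1-RE libraries, where it was highest. Of the called members, Runx1, Lef1 and Tcf7 passed an absolute log2 fold change of 1 in Smarcb1-RE, where 23.6% of all genes did so, and none did with SAHA, where 12.2% did. Between Smarcb1-RE and SAHA, Runx1 and Tcf7 passed it, where 19.8% of all genes did. With library totals as the only scaling, the median of all genes moved from 0.01 to 0.17 in Smarcb1-RE against control, and the split of called members became 6 higher and 2 lower, since Bcl11b was lost and Ikzf1 gained.

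**Figure D1:**
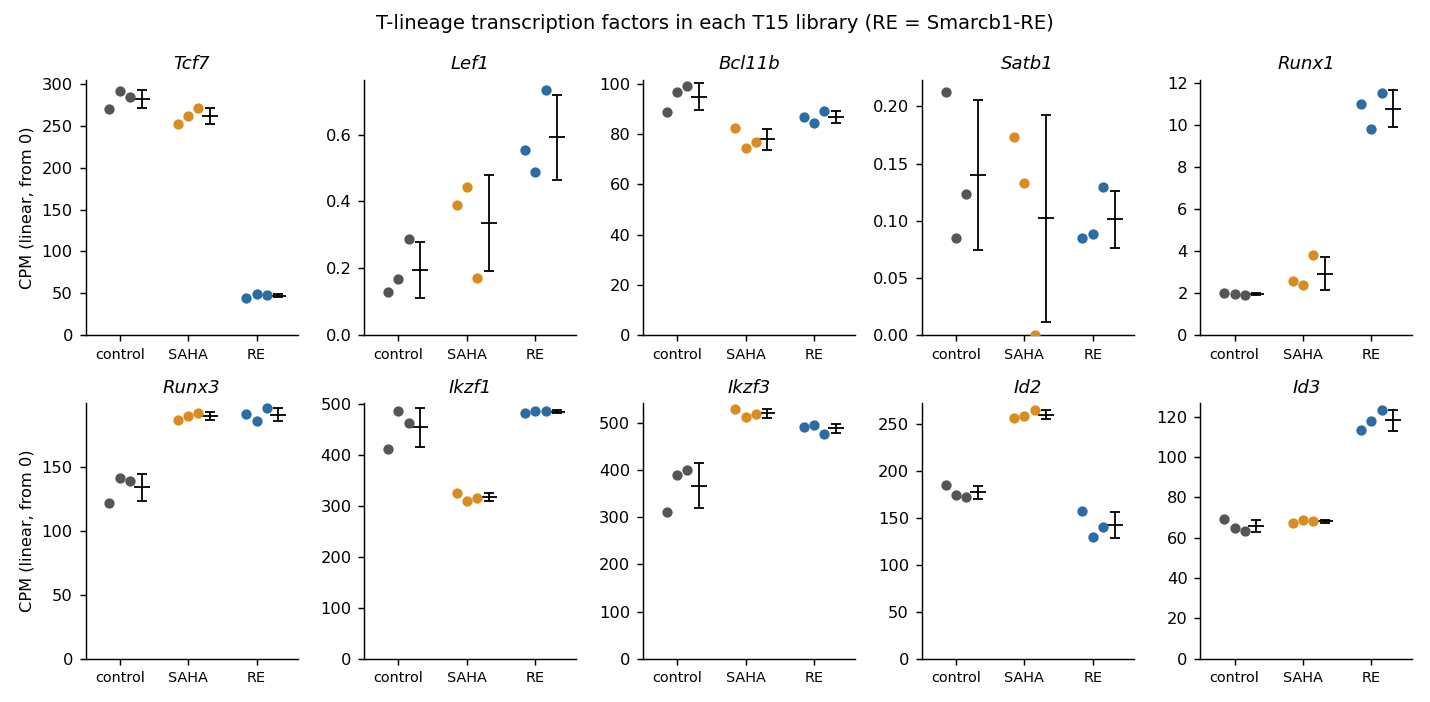
Level of each of the 10 transcription factors in every library, in CPM (counts scaled to 1000000 per library) on linear axes that start at 0 and differ between panels. Each point is 1 library, and the bar with caps is the mean ± SD of 3 libraries. Tcf7 spans 270 to 291 CPM in control and 44.8 to 48.9 CPM in Smarcb1-RE, and Runx1 in Smarcb1-RE spans 9.83 to 11.6 CPM.

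**Figure D2:**
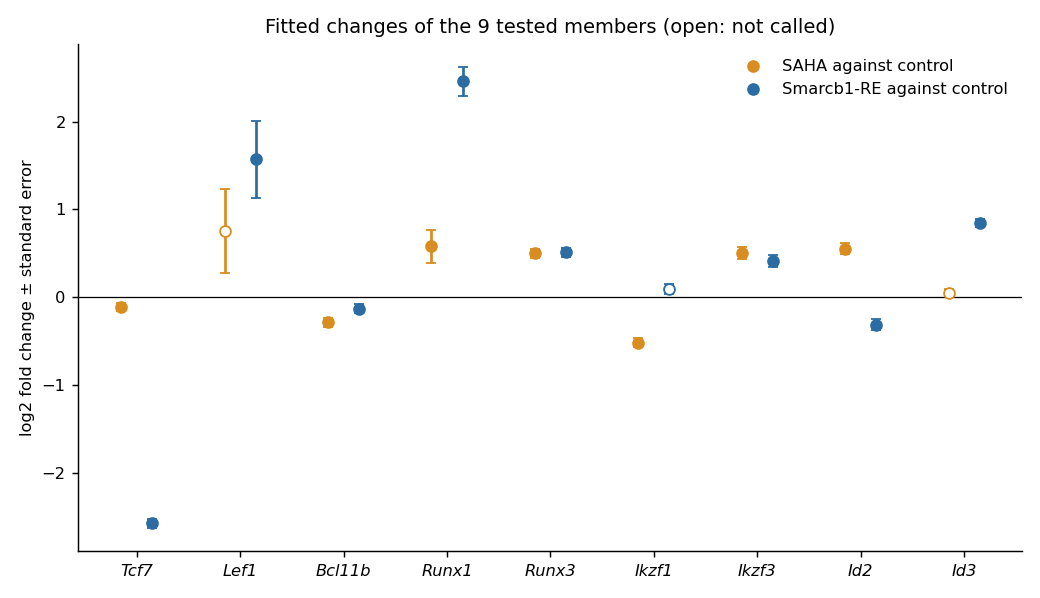
Fitted log2 fold change of the 9 tested members against the shared control libraries, with error bars of 1 standard error. Filled points passed the adjusted p threshold and open points did not. Tcf7 at -2.58 and Runx1 at 2.46 lie farthest from 0, both in Smarcb1-RE, and Ikzf1, Id2 and Id3 take different positions in the 2 comparisons.

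Tcf7 (ENSMUSG00000000782, chr11:52252371-52283014, minus strand, GRCm38) was the member with the steepest fall. Its level was 270, 291 and 285 CPM in the control libraries, 252, 261 and 271 CPM with SAHA and 44.8, 48.9 and 47.8 CPM in Smarcb1-RE. Every Smarcb1-RE library was far below every other library, while the SAHA and control ranges overlapped. The fall in Smarcb1-RE was 5.98-fold (log2 -2.58, SE 0.05, adjusted p = 8.90e-13 by edgeR), the 95th lowest log2 fold change of the 13697 genes. Smarcb1-RE also lay below SAHA by the direct comparison (log2 -2.47, SE 0.05, adjusted p = 1.08e-12). With SAHA the difference from control was small (log2 -0.11, SE 0.04, edgeR adjusted p = 0.0473). That call was lost under 5 other settings of scaling, filter or fit (adjusted p 0.0578 to 0.143, with 0.0596 by DESeq2) and without control replicate 2 (0.152) or 3 (0.101), SAHA replicate 1 (0.153) or 2 (0.108), or Smarcb1-RE replicate 2 (0.0564) or 3 (0.0639). Sequences are shown for Tcf7 and Runx1, which moved most among the members well above the floor, and for Id2 and Id3, each with 250 bases upstream of a RefSeq start site, and capitals mark every match to the 8 motifs searched. In the second of the Tcf7 windows, which lies inside the annotated gene, these are a match to the ETS motif and one to the Sp motif.

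Tcf7 upstream of the RefSeq start at chr11:52282596-52282845 (minus strand): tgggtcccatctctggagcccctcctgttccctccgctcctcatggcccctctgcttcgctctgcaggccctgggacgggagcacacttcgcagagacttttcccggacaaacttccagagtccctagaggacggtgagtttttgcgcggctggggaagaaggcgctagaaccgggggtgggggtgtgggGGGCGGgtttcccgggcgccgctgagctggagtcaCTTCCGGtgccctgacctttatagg

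Lef1 (ENSMUSG00000027985, chr3:131110471-131224356, plus strand), the paralogue of Tcf7, was close to the floor. It had 3, 4 and 7 counts in the control libraries, 9, 10 and 4 with SAHA and 13, 11 and 17 in Smarcb1-RE. All Smarcb1-RE counts were above all others, and the SAHA counts overlapped with control. Summed over libraries, the ratio of Smarcb1-RE to control was 3.02 (41 against 14 counts, exact 95% interval 1.61 to 6.01 for counting error only), and the fitted change was 1.57 on the log2 scale (SE 0.44, edgeR adjusted p = 0.00535). Lef1 passed the filter on low counts (minimum 10) only through the Smarcb1-RE libraries, the group where it was highest. Its call against control therefore rests on values that the filter had also used. Lef1 was not in the fit of genes with at least 10 counts in every library. Neither SAHA against control (log2 0.76, SE 0.48, edgeR adjusted p = 0.182) nor Smarcb1-RE against SAHA (log2 0.82, SE 0.40, edgeR adjusted p = 0.0826) passed, the latter doing so with library totals as the only scaling (log2 0.97, adjusted p = 0.0431). Within each library the log2 ratio of Lef1 to Tcf7 went from -10.56 ± 0.55 (SD, n = 3) in control to -6.37 ± 0.34 in Smarcb1-RE, so Lef1 remained at 0.0121 of the Tcf7 count even where Tcf7 was low.

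Partners and readouts of these HMG factors moved in both directions. On the list of 14 Wnt and TCF partners, 12 were tested, with 9 higher and 1 lower with SAHA (32.6% and 34.3% of all genes) and 5 higher and 5 lower in Smarcb1-RE (39.2% and 38.6%). Without SAHA replicate 2, 5 were higher and 2 lower with SAHA, and 2 were lower without any other single library except control replicate 3. Axin2, a feedback inhibitor and common transcriptional readout of β-catenin and TCF factors, averaged 3.51 ± 1.01 CPM in the control libraries (SD, n = 3), 5.39 ± 0.629 CPM after SAHA and 0.448 ± 0.0561 CPM in Smarcb1-RE. The Axin2 rise with SAHA was 0.61 and its fall in Smarcb1-RE -2.96 on the log2 scale (edgeR adjusted p = 0.0131 and 3.39e-07). Tle2, a Groucho-type corepressor, rose with both, from 1.23 ± 0.528 to 17.4 ± 2.83 CPM with SAHA and 3.84 ± 0.0927 CPM in Smarcb1-RE. Bcl9l, a β-catenin coactivator, fell by 1.02 on the log2 scale in Smarcb1-RE (edgeR adjusted p = 2.95e-08). Between the treatments, 10 of the 12 partners were lower in Smarcb1-RE than with SAHA and 2 were higher, where 36.8% and 37.7% of all genes were, and without SAHA replicate 2 or 3 or Smarcb1-RE replicate 2, 1 was higher.

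Bcl11b (ENSMUSG00000048251, chr12:107910403-108003602, minus strand) moved little. The control libraries had 88.8, 96.7 and 99.2 CPM, the SAHA libraries 82.4, 74.3 and 76.8 CPM and the Smarcb1-RE libraries 86.6, 84.3 and 89.1 CPM. All SAHA libraries lay below all control libraries, whereas Smarcb1-RE overlapped with control. The SAHA difference was -0.29 on the log2 scale (SE 0.05, edgeR adjusted p = 0.000369). For Smarcb1-RE it was -0.13 (SE 0.05, edgeR adjusted p = 0.0366), a call that was lost without control replicate 2 (0.0738) or 3 (0.101) or Smarcb1-RE replicate 1 (0.0659) or 2 (0.114) and among genes with at least 10 counts in every library (0.202), and whose sign turned with library totals as the only scaling (0.03). Bcl11b in Smarcb1-RE was above SAHA by 0.16 (SE 0.05, edgeR adjusted p = 0.0178), which was also lost without SAHA replicate 2 or 3 or Smarcb1-RE replicate 1 or 3 (adjusted p 0.0637 to 0.136).

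Satb1 (ENSMUSG00000023927, chr17:51736187-51833290, minus strand) was at the floor. It had 5, 2 and 3 counts in control, 4, 3 and 0 with SAHA and 2, 2 and 3 in Smarcb1-RE, and no difference between groups was detectable at this depth. Bcl11a, the paralogue of Bcl11b in B cells and progenitors, was untested and is named after its values were seen, with 0 counts in all control libraries, 8 to 14 with SAHA and 2 to 3 in Smarcb1-RE.

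Runx1 (ENSMUSG00000022952, chr16:92601466-92826149, minus strand) was the member with the steepest rise. Its level was 1.999, 1.94 and 1.93 CPM in control, 2.56, 2.39 and 3.83 CPM with SAHA and 11.01, 9.83 and 11.6 CPM in Smarcb1-RE. The 3 groups did not overlap, and SAHA replicate 3 was the highest of its group. In Smarcb1-RE the rise was 5.50-fold (log2 2.46, SE 0.16, edgeR adjusted p = 2.31e-08), the 513th highest log2 fold change of the 13697 genes. With SAHA it was 0.58 (SE 0.18, edgeR adjusted p = 0.0140) and 0.33 without SAHA replicate 3, which ended the call (adjusted p = 0.101). The direct comparison put Smarcb1-RE 1.88 above SAHA (SE 0.16, edgeR adjusted p = 2.07e-07). Runx1 is transcribed from a distal and a proximal promoter, and both are shown because counts per gene cannot tell which was used. Matches to the NF-Y motif stand in both windows, and E-box matches in the distal one, given first. The proximal window lies inside the annotated gene, and the distal one overlaps the start of that gene.

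Runx1 upstream of the RefSeq start at chr16:92826075-92826324 (minus strand): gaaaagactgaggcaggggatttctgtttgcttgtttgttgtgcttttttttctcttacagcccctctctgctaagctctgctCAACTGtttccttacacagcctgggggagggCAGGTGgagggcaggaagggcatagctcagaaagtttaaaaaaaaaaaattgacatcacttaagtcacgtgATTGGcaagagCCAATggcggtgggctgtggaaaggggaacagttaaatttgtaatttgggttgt
Runx1 upstream of the RefSeq start at chr16:92697330-92697579 (minus strand): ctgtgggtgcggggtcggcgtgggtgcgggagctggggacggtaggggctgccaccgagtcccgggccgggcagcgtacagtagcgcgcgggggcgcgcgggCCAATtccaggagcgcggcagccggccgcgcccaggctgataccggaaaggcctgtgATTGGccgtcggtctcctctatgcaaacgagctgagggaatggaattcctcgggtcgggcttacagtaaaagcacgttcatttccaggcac

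Runx3 (ENSMUSG00000070691, chr4:135120652-135177990, plus strand) rose in both comparisons. It was at 122, 141 and 139 CPM in control, 186, 190 and 192 CPM with SAHA and 191, 185 and 195 CPM in Smarcb1-RE. All treated libraries were above all control libraries and intermingled with each other. The fitted rise was 0.50 with SAHA (SE 0.05, edgeR adjusted p = 3.16e-06) and 0.51 in Smarcb1-RE (SE 0.05, edgeR adjusted p = 1.53e-06), and the difference between them was 0.01 (SE 0.05, edgeR adjusted p = 0.883), or 0.17 with library totals as the only scaling (adjusted p = 0.0148). Runx3 lies on chromosome 4, where the median of 838 tested genes was 0.36 in Smarcb1-RE against control and -0.04 with SAHA. Less that median, the Smarcb1-RE rise of Runx3 was 0.15, and the part of a chromosome-wide shift in it was not tested.

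The Runx3 to Runx1 ratio was lower in every Smarcb1-RE library than in any other library. Runx3 counts were 68.2 times those of Runx1 in control, 66.2 times with SAHA and 17.7 times in Smarcb1-RE, as log2 means of 6.09 ± 0.14, 6.05 ± 0.35 and 4.14 ± 0.08 (SD, n = 3 each). Runx2, the osteoblast regulator of the family, had a level near that of Runx3 per kilobase of merged exons, at 29.2 against 26.8 CPM in control, and rose by 0.49 on the log2 scale in Smarcb1-RE (edgeR adjusted p = 6.31e-07) to 363 ± 2.01 CPM. With SAHA Runx2 did not pass (log2 0.09, edgeR adjusted p = 0.122). Cbfb, which encodes the shared DNA-binding partner, was lower in both, from 563 ± 14.5 CPM in control to 485 ± 9.06 CPM with SAHA and 427 ± 20.4 CPM in Smarcb1-RE (log2 -0.21 and -0.40, edgeR adjusted p = 0.000670 and 2.21e-06). Of 5 listed family members and partners, 4 were tested, and 1 was higher (2 without control replicate 3) and 2 lower with SAHA, and 2 higher and 2 lower in Smarcb1-RE, beside 32.6% and 34.3% of all genes with SAHA and 39.2% and 38.6% in Smarcb1-RE.

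Ikzf1 (ENSMUSG00000018654, chr11:11685003-11772926, plus strand) fell with SAHA. The control libraries had 412, 486 and 463 CPM, the SAHA libraries 326, 310 and 314 CPM and the Smarcb1-RE libraries 481, 485 and 486 CPM. Every SAHA library was below every other library, and the Smarcb1-RE libraries lay near the top of the control range. The fall with SAHA was -0.52 on the log2 scale (SE 0.05, edgeR adjusted p = 2.76e-06). Smarcb1-RE did not pass against control (log2 0.09, SE 0.05, edgeR adjusted p = 0.122), though it passed with library totals as the only scaling (0.25, adjusted p = 0.00122), among genes with at least 10 counts in every library (0.15, adjusted p = 0.0177) and without control replicate 2 (0.13, adjusted p = 0.0458). Without control replicate 1, the library that stood apart, it was 0.02 (adjusted p = 0.520). Against SAHA, Smarcb1-RE was 0.61 higher (SE 0.05, edgeR adjusted p = 3.55e-07).

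Ikzf3 (ENSMUSG00000018168, chr11:98464902-98546031, minus strand) rose in both groups. It was at 311, 390 and 400 CPM in control, with control replicate 1 the lowest library, at 530, 512 and 519 CPM with SAHA and at 492, 496 and 478 CPM in Smarcb1-RE. All treated libraries were above all control libraries. The rise was 0.50 with SAHA (SE 0.07, edgeR adjusted p = 5.45e-05) and 0.41 in Smarcb1-RE (SE 0.07, edgeR adjusted p = 0.000207). Without control replicate 1 the rises were 0.40 and 0.30 (edgeR adjusted p = 2.93e-07 and 1.91e-06). Ikzf3 in Smarcb1-RE was 0.09 below SAHA (log2 -0.09, SE 0.07, edgeR adjusted p = 0.276), a difference that passed without control replicate 1 (adjusted p = 0.00739) and in a fit to these 2 groups alone (adjusted p = 0.00874), and whose sign turned with library totals as the only scaling (0.07).

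The Ikzf3 to Ikzf1 ratio was higher in every SAHA library than in any other library. It was 0.806 in control, 1.64 with SAHA and 1.01 in Smarcb1-RE, as log2 means of -0.31 ± 0.10, 0.72 ± 0.01 and 0.01 ± 0.03 (SD, n = 3 each). Of the 3 other family members listed, 2 were tested, and Ikzf5 was the only one called, at -0.24 with SAHA (edgeR adjusted p = 0.00334).

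Id2 (ENSMUSG00000020644, chr12:25093799-25097140, minus strand) moved in opposite directions in the 2 comparisons. The control libraries had 185, 174 and 173 CPM, the SAHA libraries 256, 258 and 265 CPM and the Smarcb1-RE libraries 157, 130 and 141 CPM. The 3 groups did not overlap. The rise with SAHA was 0.55 on the log2 scale (SE 0.06, edgeR adjusted p = 3.61e-06), the difference in Smarcb1-RE was -0.31 (SE 0.06, edgeR adjusted p = 0.000360), and Smarcb1-RE was below SAHA by -0.87 (SE 0.06, edgeR adjusted p = 3.55e-08).

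Id3 (ENSMUSG00000007872, chr4:136143497-136145755, plus strand) rose in Smarcb1-RE. It was at 69.4, 64.8 and 63.4 CPM in control, 67.3, 68.8 and 68.3 CPM with SAHA and 113, 118 and 123 CPM in Smarcb1-RE. Control and SAHA intermingled and Smarcb1-RE stood above both. The rise in Smarcb1-RE was 0.84 (SE 0.05, edgeR adjusted p = 4.19e-09), while SAHA did not pass (log2 0.05, SE 0.05, edgeR adjusted p = 0.390), and the direct comparison gave 0.79 (SE 0.05, edgeR adjusted p = 8.08e-09). Id3 shares chromosome 4 with Runx3, and less the chromosome median its rise was 0.48. The upstream windows of both genes are shown as those of a paralogue pair that went opposite ways in Smarcb1-RE. Both windows lie upstream of a RefSeq start but inside the annotated genes. The Id2 window holds matches to the NF-Y, E-box and Sp motifs, and the Id3 window to the Sp motif.

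Id2 upstream of the RefSeq start at chr12:25096093-25096342 (minus strand): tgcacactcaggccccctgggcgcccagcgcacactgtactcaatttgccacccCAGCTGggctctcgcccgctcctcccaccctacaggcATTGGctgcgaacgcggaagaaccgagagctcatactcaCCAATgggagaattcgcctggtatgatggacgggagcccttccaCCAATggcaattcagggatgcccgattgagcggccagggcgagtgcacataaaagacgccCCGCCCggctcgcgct
Id3 upstream of the RefSeq start at chr4:136143572-136143821 (plus strand): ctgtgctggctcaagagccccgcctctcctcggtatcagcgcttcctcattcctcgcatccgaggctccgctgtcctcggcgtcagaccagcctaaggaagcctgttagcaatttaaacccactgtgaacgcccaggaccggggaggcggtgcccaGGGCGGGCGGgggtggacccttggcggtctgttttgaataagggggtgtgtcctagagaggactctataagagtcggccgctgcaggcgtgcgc

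The Id genes were then set beside the E proteins they inhibit. The Id3 to Id2 ratio was 0.372 in control, 0.262 with SAHA and 0.831 in Smarcb1-RE. Summed over Id1 to Id4, the Id level was 244 ± 9.68 CPM in control (SD, n = 3), 331 ± 5.31 CPM with SAHA and 261 ± 12.0 CPM in Smarcb1-RE. The sum of the E proteins Tcf3, Tcf4 and Tcf12 was 221 ± 4.85, 196 ± 2.71 and 283 ± 4.78 CPM. The ratio of the sums was thus 1.10 in control, 1.69 with SAHA and 0.922 in Smarcb1-RE. Counts grow with transcript length, so these ratios, and the lower one in Smarcb1-RE, hold for counts only. Per kilobase of merged exons, Id2 and Id3 were at 72.7 and 36.8 CPM in control and 58.4 and 66.0 CPM in Smarcb1-RE. Tcf3 and Tcf12 were at 36.8 and 4.64 CPM in control and 38.85 and 7.94 CPM in Smarcb1-RE. The ratio of sums scaled by length was not taken. Among the E proteins, Tcf12 rose in Smarcb1-RE (log2 0.77, edgeR adjusted p = 1.75e-09, from 72.1 ± 1.91 to 123 ± 1.99 CPM), and Tcf3 was lower with SAHA (log2 -0.24, edgeR adjusted p = 7.27e-05) without passing in Smarcb1-RE (log2 0.08, edgeR adjusted p = 0.0649). Tcf4 rose in both from a low level, from 0.571 ± 0.187 CPM to 3.44 ± 0.692 CPM with SAHA and 2.77 ± 0.579 CPM in Smarcb1-RE. Id1, a further inhibitor at 1.40 ± 0.189 CPM in control, went the way of Id2, to 2.74 ± 0.316 CPM with SAHA and 0.287 ± 0.127 CPM in Smarcb1-RE.

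The 5 ratios in 3 comparisons gave 15 tests over libraries. In an exact two-sided permutation test of 3 against 3 libraries the smallest possible p is 0.1, so none can pass 0.05. That smallest value (Benjamini-Hochberg adjusted 0.115) was reached in 13 of them. The exceptions were 2 differences between SAHA and control, with an exact p of 0.2 for Lef1 to Tcf7 (difference 0.79, adjusted 0.214) and of 1 for Runx3 to Runx1 (difference -0.04).

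**Figure D3:**
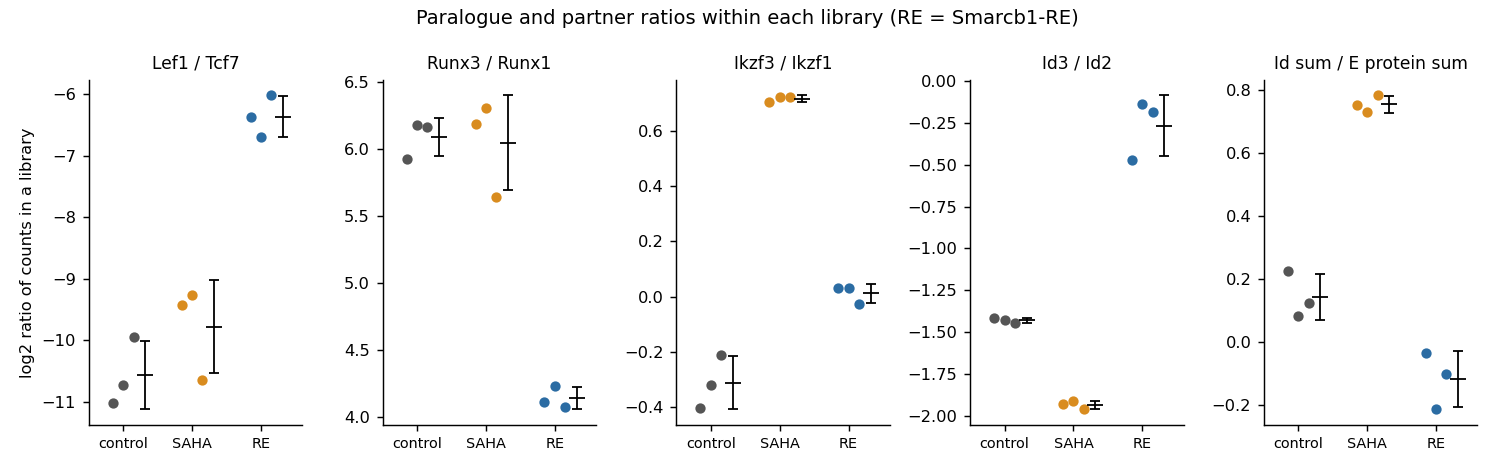
Log2 ratio of the estimated counts of 2 genes, or of 2 sums of genes, within each library, with the mean ± SD of 3 libraries beside the points. The axes differ between panels and do not start at 0. Lef1 to Tcf7 lies highest and Runx3 to Runx1 lowest in Smarcb1-RE, while Ikzf3 to Ikzf1 (mean 0.72) and the Id to E protein sums (mean 0.75) lie highest with SAHA.

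Levels of different genes were compared per kilobase of merged exons. In control cells Tcf7 led at 108 ± 4.04 CPM per kilobase (SD, n = 3), followed by Ikzf1 at 78.5 ± 6.56 and Id2 at 72.7 ± 2.77, whose ranges overlapped, then Ikzf3 at 41.9 ± 5.53, Id3 at 36.8 ± 1.75, which overlapped with Ikzf3, Runx3 at 26.8 ± 2.14 and Bcl11b at 11.7 ± 0.666. Runx1 (0.163 ± 0.00292), Lef1 (0.0222 ± 0.00947) and Satb1 (0.00737 ± 0.00345) came last in every group. In Smarcb1-RE Tcf7, at 18.0 ± 0.810 CPM per kilobase, was the sixth of the 10. Its place as first in control and sixth in Smarcb1-RE was also found with the length of the longest coding transcript, whereas Ikzf3 then moved from the fourth place to the second in control and led in the other two groups.

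Other regulators of T cells were read from lists beside the members. Of 22 listed T-lineage regulators, 20 were tested, with 12 higher and 3 lower with SAHA (32.6% and 34.3% of all genes) and 12 higher and 6 lower in Smarcb1-RE (39.2% and 38.6%). Gata3, needed for CD4 lineage commitment, had 2.81 ± 0.289 CPM in control (SD, n = 3), 3.17 ± 0.420 CPM with SAHA and 16.8 ± 0.639 CPM in Smarcb1-RE, a rise of 2.57 on the log2 scale (edgeR adjusted p = 4.65e-10). Notch1, the receptor that starts the T cell program, rose by 1.95 with SAHA and 1.23 in Smarcb1-RE (edgeR adjusted p = 2.23e-06 and 0.000121). Zbtb7b, which encodes the CD4 lineage factor ThPOK, rose by 0.75 and 0.79 (edgeR adjusted p = 2.53e-07 and 6.75e-08). Myb, a factor of immature blood cells, rose by 0.86 with SAHA and fell by 0.49 on the log2 scale in Smarcb1-RE (edgeR adjusted p = 0.000328 and 0.0175).

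Effector regulators and target genes moved in both patterns, some higher with SAHA and lower in Smarcb1-RE, as Id2 was, and some higher with both. On the list of 15 effector and helper regulators, 11 were tested, with 7 higher and 0 lower with SAHA (32.6% and 34.3% of all genes) and 5 higher and 6 lower in Smarcb1-RE (39.2% and 38.6%). Irf4 went from 412 ± 32.6 CPM to 846 ± 7.62 CPM with SAHA and 291 ± 6.32 CPM in Smarcb1-RE, and Zeb2 from 14.2 ± 0.873 to 28.1 ± 1.77 and 5.02 ± 0.335 CPM. Tbx21, which encodes T-bet, differed by 0.45 and -0.56 (edgeR adjusted p = 9.73e-07 and 7.19e-08). By contrast, the aryl hydrocarbon receptor gene Ahr rose by 1.01 and 1.30 and the zinc-finger repressor gene Zbtb32 by 0.43 and 0.62 on the log2 scale (edgeR adjusted p at most 0.000126 for each). On the list of 22 genes known as targets of these factors, 14 were tested, with 12 higher and 0 lower with SAHA and 8 higher and 5 lower in Smarcb1-RE, beside the same shares of all genes. Il7r, the receptor for interleukin-7, was at 36.4 ± 0.240 CPM in control, 49.2 ± 2.18 CPM with SAHA and 7.10 ± 0.435 CPM in Smarcb1-RE. S1pr1, which lets T cells leave lymphoid organs, was at 202 ± 5.84, 275 ± 4.09 and 39.7 ± 1.39 CPM, and the perforin gene Prf1 at 19.7 ± 2.002, 26.2 ± 1.11 and 2.70 ± 0.251 CPM. All 3 rose with SAHA and fell in Smarcb1-RE (edgeR adjusted p at most 0.000473). The cell cycle inhibitor gene Cdkn1a rose in both, by 0.65 and 1.67, as did the coreceptor gene Cd8a, by 0.55 and 0.20 (edgeR adjusted p at most 0.00184 for each). Cd8b1, the gene of the other coreceptor chain, did not follow Cd8a in Smarcb1-RE. It differed by 0.23 with SAHA and -0.22 in Smarcb1-RE (edgeR adjusted p = 0.000116 and 0.000140). Slamf6, a surface receptor often used with TCF-1 to mark memory-like T cells, went against Tcf7 and rose from 4.35 ± 0.435 to 35.4 ± 1.55 CPM in Smarcb1-RE (log2 3.02, edgeR adjusted p = 4.19e-11).

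**Figure D4:**
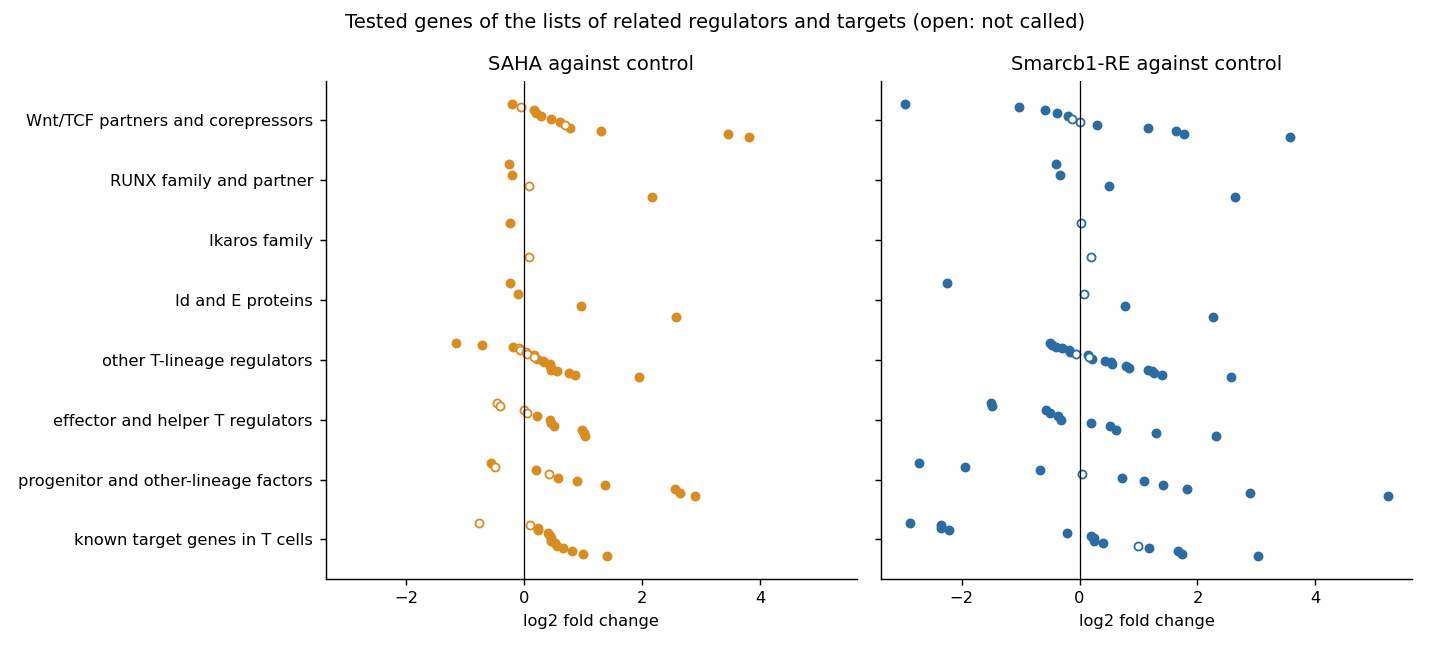
Fitted log2 fold change of each tested gene of 8 of the 9 lists of related regulators and targets, with SAHA on the left and Smarcb1-RE on the right, both against the same control libraries. Filled points passed the adjusted p threshold, open points did not, and the height of a point within its row carries no value. Over all 9 lists, 50 of the 78 tested genes were higher with SAHA and 11 lower, and in Smarcb1-RE 40 were higher and 29 lower.

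Over all 9 lists, 50 of the 78 tested genes were higher and 11 lower with SAHA, where 32.6% of all genes were higher and 34.3% lower, and 40 were higher and 29 lower in Smarcb1-RE, where the shares were 39.2% and 38.6%. Their median log2 fold change was 0.43 with SAHA and 0.20 in Smarcb1-RE, beside medians of 0.00 and 0.01 over all tested genes, and the members' own medians were 0.50 and 0.41. The members and lists were chosen with earlier results of these data known, so these counts and medians are descriptions only. Factors of progenitors and other blood lineages were on 1 of the lists, and 10 of 16 were tested. With SAHA 7 of them were higher and 1 lower, and in Smarcb1-RE 6 were higher and 3 lower, beside the same shares of all genes. Irf8, a factor of myeloid and B cells, rose by 2.56 with SAHA and fell by 2.73 on the log2 scale in Smarcb1-RE, while Meis1 rose by 0.90 and 1.82 (edgeR adjusted p at most 0.000246 for each). Cebpb, a factor of myeloid cells, went the other way from Irf8, as it fell by 0.56 on the log2 scale with SAHA and rose by 1.42 in Smarcb1-RE, with means of 14.7 CPM in control, 10.0 CPM with SAHA and 39.5 CPM in Smarcb1-RE (edgeR adjusted p = 4.47e-06 and 1.60e-10). Summed markers of B cells were 1.15 to 1.28 CPM in control, 1.06 to 1.30 CPM with SAHA and 4.10 to 4.56 CPM in Smarcb1-RE, with Cd79b at no more than 3 counts in every library. Summed myeloid markers were at most 0.851 CPM, with Csf1r, Adgre1, Cd14, Elane and Ly6g at no more than 3 counts, and summed natural killer cell markers at most 0.221 CPM. Summed erythroid markers were 0.510 to 0.592 CPM in control and 1.33 to 4.42 CPM in the other groups, and fibroblast markers at most 1.21 CPM. Their part in the members' changes was not tested.

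By the pair of log2 fold changes against control, each member was matched to the nearest of 61 list genes whose log2 CPM averaged 1 or more. The closest matches were Id2 with Nfil3, itself a regulator of Id2 in innate lymphoid cells, at a distance of 0.04, and Ikzf3 with Cd28 at 0.05. Runx3 was also nearest to Cd28 (0.12), Lef1 to Cdkn1a (0.14), Bcl11b to Ikzf5 (0.16), Id3 to Tcf12 (0.18) and Ikzf1 to Tcf3 (0.28). Runx1 was nearest to Gata3 (0.42) and Tcf7 to Il7r (0.59), the widest gaps. Runx1 and Gata3 differed mainly with SAHA, at 0.58 (SE 0.18) and 0.17 (SE 0.13), beside 2.46 and 2.57 in Smarcb1-RE. The distances take no account of standard errors. Each distance rests on 2 comparisons that share the control libraries.

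Chromosome position was read beside the changes. In Smarcb1-RE against control the median of chromosome 4, which holds Runx3 and Id3, was 0.36, and that of chromosome 11, which holds Tcf7, Ikzf1 and Ikzf3, was -0.13 over 1099 tested genes. Less the median of its chromosome, Tcf7 was at -2.45, Ikzf3 at 0.54 and Ikzf1 at 0.22. Between Smarcb1-RE and SAHA the chromosome 4 median was 0.38, and less that median Runx3 was at -0.37 and Id3 at 0.41.

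**Figure D5:**
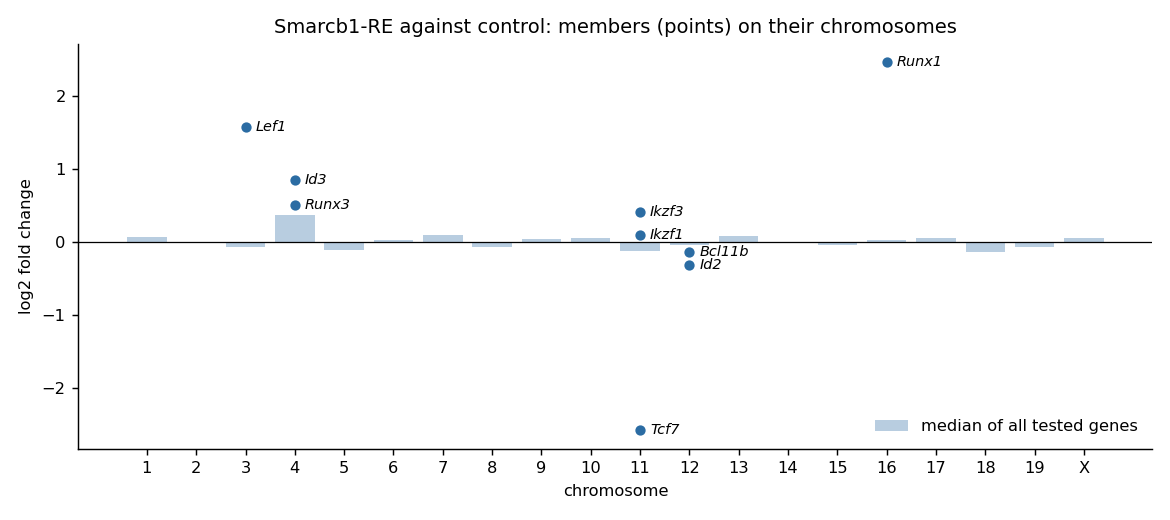
Bars give the median log2 fold change of all tested genes on each chromosome in Smarcb1-RE against control, and points give the 9 tested members on their chromosome. The chromosome 4 bar at 0.36 reaches most of the way to Runx3 at 0.51, while Tcf7, Runx1 and Lef1 lie far from the bars of their chromosomes.

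RefSeq windows were matched for 9 of the 10 members, all but Ikzf3. Over the 20 windows, some of which overlap, the Sp motif GGGCGG was matched in 10, against 32.7% of all 32851 windows of the same length. The E-box CAGNTG was matched in 6 (44.8% of all), NF-Y CCAAT in 5 (33.8%), TCF/LEF CTTTGA in 2 (13.8%), Ikaros TGGGAA in 2 (21.6%), RUNX TGTGGT in 1 (14.0%), ETS CCGGAAG in 1 (6.91%) and CRE TGACGTCA in 0 (1.55%), on both strands. A match is a description of the letters and not a binding site.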

How the data were processed

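RNA of the 9 libraries was read single-end from a strand-specific kit. The authors deposited 1 table of estimated counts per gene, and the submitters' processing notes name FastQC 0.11.8, MultiQC 1.7, Salmon 0.14.1, DESeq2 1.22.2 and the build GRCm38, without roles. Of the nonzero values 52.4% were not whole, and all were rounded for the fits, the CPM values and the printed counts. Gene names and coordinates came from GENCODE M21, which held 99.46% of the 35288 identifiers, and upstream sequences from RefSeq (GRCm38.p6). The symbol Tle5 was matched through RefSeq to Aes. Lef1, Satb1 and Runx1 have exons that overlap other M21 genes, which were not among the listed identifiers.

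Counts were filtered with filterByExpr (minimum count 10), scaled by TMM and fitted in 1 model of the 3 groups with edgeR 4.0.16 in R 4.3.3, with Benjamini-Hochberg adjustment over 13697 genes. Standard errors were taken as |log2 fold change| over the root of the F statistic. CPM values use the TMM factors. Ratios within a library used the estimated counts before rounding, with nothing added. Steps were tested on simulated data. Replicate numbers did not pair the libraries. As alternatives, DESeq2 1.42.0, other scalings and filters, a replicate block and leaving out each library were run.

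The members and all lists were chosen with earlier results of these data known. The named genes are the members, Smarcb1, the up to 3 largest called changes per list and comparison among genes whose log2 CPM averaged 1 or more, the genes of the ratios and the nearest list genes. Bcl11a and Cd8b1 were named in addition, after their values were seen. Some items of the lists are not reported here. Counting intervals and the floor of 3 counts cover counting error only.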

Additional observations from a re-analysis of the deposited data

How the results depend on the processing

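Of 509 values of single members under alternative settings, 442 kept their direction and side of the threshold, 41 lost a call, 7 gained one, 9 moved and 10 turned sign. Among the values that moved, 2 also changed sign, both in Smarcb1-RE against SAHA less the median of the chromosome. Ikzf3 went from -0.09 to 0.10 and Runx3 from 0.009 to -0.37. The 10 signs counted as turned belonged to values that were near 0. They were Bcl11b in Smarcb1-RE against control with library totals as the only scaling (0.0278), Ikzf3 in Smarcb1-RE against SAHA with that scaling (0.0676), Runx3 in Smarcb1-RE against SAHA with DESeq2 (-0.00248) and median-ratio factors (-0.00247), and over the fits that each left out 1 library (-0.0154 to 0.0274). The result for Ikzf5, Smarcb1-RE against control, was -0.00552 without a filter on low counts and -0.0382 to 0.0481 over the fits that left out 1 library. The log2 difference of Runx3 to Runx1 between SAHA and control was -0.17 to 0.16 in such fits. The cause was not tested.

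When calls also needed a log2 fold change of 1 or more in size, the members called were 0 with SAHA (0 higher, 0 lower), 3 in Smarcb1-RE (2 higher, 1 lower) and 2 between Smarcb1-RE and SAHA (1 higher, 1 lower). Among the 78 tested list genes they were 14 with SAHA (13 higher, 1 lower) and 33 in Smarcb1-RE (22 higher, 11 lower). Between the treatments they were 29 (11 higher, 18 lower). This setting asks for a larger change, and 12.2%, 23.6% and 19.8% of all genes passed it in these comparisons. Leaving out 1 library gave 6 to 7, 7 to 8 and 5 to 7 called members in these comparisons.

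Libraries with the same replicate number did not deviate together (mean correlation -0.0034 over 9 pairs, beside 0.0017 over 18 pairs with different numbers). With a replicate block, 7, 8 and 6 members were called in the 3 comparisons, as without it, and 59, 68 and 65 list genes against 61, 69 and 67. The depth limits Satb1 and Lef1, whose counts lie at or near the floor.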
